A study of Mus musculus with 4 samples.

Results

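The Twist, Hand, E protein and Id genes encode helix-loop-helix transcription regulators, and their RNA was measured in skeletal stem/progenitor cells of the mouse cranial sutures. The 9 genes were taken by symbol from the 23946 symbols in each library: *Twist1* and *Twist2* (Twist family), *Hand2*, *Tcf3* and *Tcf4* (E proteins), and *Id1*, *Id2*, *Id3* and *Id4* (inhibitors). All 9 were listed in every library, and 8 of them were at 5 FPKM or more in every library, the exception being *Hand2*. FPKM is the fragments of a gene scaled by the size of the library and the length of the transcript, so levels of different genes in 1 library can be set side by side. Between libraries the values are compared as scaled by the authors, and other scalings are given where they change a call.

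Cells were sorted by FACS from wild-type CD-1 mice at postnatal day 3 (pN3), with 1 library for the posterior frontal suture (PF), 1 for the sagittal (SAG), 1 for the coronal (COR) and 1 for the growth plate of the tibia (GP), which served as the reference outside the skull. The sort kept CD51+;CD200+ cells without 6C3, CD105, Tie2, Thy1.1 and Thy1.2 and without the blood cell antigens CD45 and Ter119. Tissue was pooled over many animals, the whole suture complex was dissected, and no treatment or mutant allele was involved. The study set the PF suture, which fuses early in the life of the mouse, against the SAG and COR sutures, which stay patent.

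Basic helix-loop-helix proteins bind DNA as dimers at E-boxes, short sites with the letters CANNTG. E proteins are made in most tissues and pair with tissue-restricted partners such as TWIST1, which can also bind as a homodimer. Id proteins have the dimerization domain but no basic region, so an E protein held by an Id protein cannot bind DNA. In the skull, TWIST1 restrains osteoblast differentiation at the suture margins, loss of 1 copy in people gives Saethre-Chotzen syndrome with fusion of the coronal suture, and the Id genes are direct targets of BMP signaling through SMAD proteins.

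The sequences just upstream of the start sites were searched for E-boxes and for GGCGCC, a GC-rich element known as a SMAD site of Id promoters under BMP. They are 250 bases ending at the base before the RefSeq start, from RefSeq on GRCm38.p6, written 5′ to 3′ along the gene's strand. Capitals mark CANNTG and GGCGCC. Both motifs were searched as written, which covers both strands since each reads the same on the other strand, and no matches overlapped in the windows printed. The windows lie at chr12:33957421-33957670 on the plus strand for *Twist1*, chr1:91801211-91801460 on the plus strand for *Twist2*, chr12:25096093-25096342 on the minus strand for *Id2*, chr4:136143572-136143821 on the plus strand for *Id3*, and chr13:48260866-48261115 on the plus strand for *Id4*.
Twist1: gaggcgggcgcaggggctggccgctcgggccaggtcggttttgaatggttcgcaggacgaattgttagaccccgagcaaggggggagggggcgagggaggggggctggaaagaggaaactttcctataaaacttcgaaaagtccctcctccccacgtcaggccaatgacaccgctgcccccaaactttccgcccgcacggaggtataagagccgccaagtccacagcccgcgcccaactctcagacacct
Twist2: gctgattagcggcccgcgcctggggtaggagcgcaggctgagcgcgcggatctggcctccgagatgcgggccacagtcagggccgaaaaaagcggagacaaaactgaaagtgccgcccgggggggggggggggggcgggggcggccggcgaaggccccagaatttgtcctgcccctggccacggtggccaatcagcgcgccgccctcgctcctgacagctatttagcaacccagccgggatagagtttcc
Id2: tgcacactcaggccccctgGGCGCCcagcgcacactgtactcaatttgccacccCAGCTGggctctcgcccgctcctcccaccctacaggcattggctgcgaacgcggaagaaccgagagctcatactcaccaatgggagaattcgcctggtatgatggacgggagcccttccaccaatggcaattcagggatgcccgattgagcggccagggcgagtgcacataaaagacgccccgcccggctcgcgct
Id3: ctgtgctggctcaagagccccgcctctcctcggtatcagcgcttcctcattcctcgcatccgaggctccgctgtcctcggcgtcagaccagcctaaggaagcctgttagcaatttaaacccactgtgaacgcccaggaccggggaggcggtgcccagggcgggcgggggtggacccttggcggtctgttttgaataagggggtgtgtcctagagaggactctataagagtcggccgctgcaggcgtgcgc
Id4: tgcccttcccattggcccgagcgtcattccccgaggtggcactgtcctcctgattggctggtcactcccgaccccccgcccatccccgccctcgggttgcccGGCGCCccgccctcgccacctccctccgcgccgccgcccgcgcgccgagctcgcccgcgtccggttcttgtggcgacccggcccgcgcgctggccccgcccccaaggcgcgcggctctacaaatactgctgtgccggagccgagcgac

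The windows of *Twist1*, *Twist2* and *Id3* held neither motif. The *Id2* window held 1 CANNTG with first base at position -196 from the start site, and 1 GGCGCC at -231. In the *Id4* window there was 1 GGCGCC, at -148, and no CANNTG. Among the members not printed, *Hand2* held 2 CANNTG and 1 GGCGCC, and *Tcf3* held 1 CANNTG. Of 32851 upstream windows of the same length, 66.2% held at least 1 CANNTG and 9.59% held GGCGCC. The windows of *Id1* and *Tcf4* were not analysed here. Sequence outside the windows was not searched, so sites farther from the start would be missed.

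*Twist1* and *Twist2* have near-identical helix-loop-helix domains, so identical stretches of their transcripts were looked for. The longest run of identical bases between their longest coding transcripts was 23 bases, at bases 710 to 732 of *Twist1* and 431 to 453 of *Twist2*, within the coding sequence of both. It is printed to show how short the common stretch is.
Twist1 and Twist2: ctgcgcaagatcatccccacgct
No window of 50 bases was shared by the *Twist1* and *Twist2* transcripts or by any pair of Id transcripts, whose longest common runs were 11 to 19 bases. For these pairs, no read stretch of that length could match both of the transcripts without a mismatch. Matches with mismatches, and other transcripts of these genes, were not checked.

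In the mm9 annotation, the build of the deposited values, *Twist1* lies at chr12:34642536-34644682 and *Twist2* at chr1:93698038-93744605, both on the plus strand. *Id1* lies at chr2:152561987-152563146 and *Id3* at chr4:135699412-135701670 on the plus strand, and *Id2* at chr12:25778666-25780957 on the minus strand. *Tcf3* lies at chr10:79872259-79896392 on the minus strand, and *Hand2* at chr8:59799780-59803314 on the plus strand. *Id4*, at chr13:48356796-48359405 on the plus strand, overlaps *A330033J07Rik* on the minus strand. Whether fragments were counted by strand is not given in the sources used here, so reads of *Id4* and of this antisense gene cannot be told apart.

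With 1 library per tissue there were no replicates. No test between tissues was made, no difference below carries a p-value, and neither the order of the libraries for a gene nor any ratio can be set against the spread between libraries of 1 tissue. Libraries held 11402 to 12263 genes at 1 FPKM or more. Depth is not given with the values, but the smallest step of FPKM times transcript length put PF at 43.0%, GP at 83.1% and COR at 84.8% of the depth of SAG. If 1 step is 1 fragment, the 8 members above 5 FPKM rested on 282 (*Id4* in PF) to 69818 fragments (*Id3* in SAG). The gated antigens CD51 and CD200 were represented by *Itgav* at 6.20 to 15.0 FPKM and *Cd200* at 23.5 to 62.6 FPKM. *Ptprc*, the gene of CD45, was at 0.568 FPKM in PF and at most 0.0574 in the other libraries. Among the other antigens sorted against, *Enpep*, which encodes 6C3, was at 7.05 FPKM in PF and 1.39 to 3.74 elsewhere. *Eng*, which encodes CD105, was at 1.70 FPKM in PF and 0.679 to 1.07 elsewhere. PF was not the highest for the genes of Tie2 and Thy1. *Tek*, which encodes Tie2, was highest in SAG at 0.627 FPKM, against 0.131 in PF. *Thy1* was highest in GP at 0.435 FPKM, against 0.178 in PF. *Col1a1* and *Sparc*, matrix genes of bone, were listed at 0 in COR, so a value of 0 is given here only as listed.

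**Figure D1:**
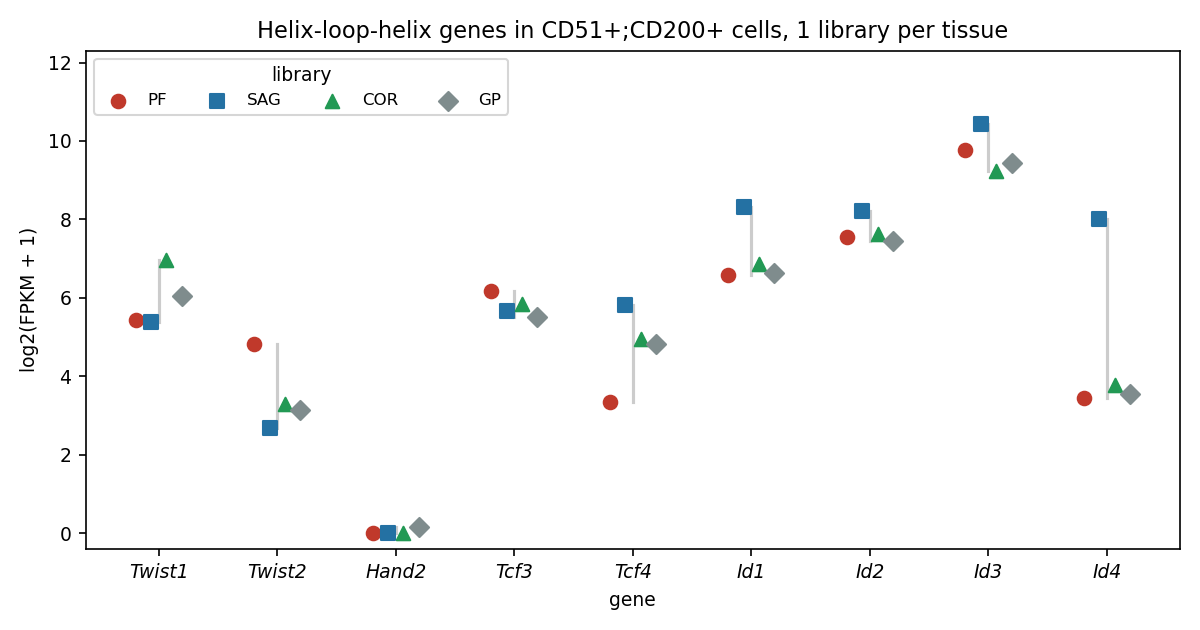
Level of each of the 9 genes in the 4 libraries, as log2(FPKM + 1) on the vertical axis, with 1 point per library joined by a grey line from the lowest to the highest. *Id3* is the highest gene in every library, *Id4* sits between 3.45 and 3.78 in 3 libraries and at 8.01 in SAG, and *Twist1* and *Twist2* are highest in different sutures.

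*Twist1* and *Twist2* were highest in different sutures. *Twist1* was listed at 42.1 FPKM (PF), 40.4 (SAG), 124 (COR) and 65.6 (GP). It was thus highest in COR, with GP next and the midline sutures PF and SAG at about the same level, and the highest library was 3.08 times the lowest. *Twist2*, known from the dermis and as a repressor of osteoblast maturation, was listed at 27.1 FPKM in PF and 5.43 in SAG, with 8.77 in COR and 7.87 in GP. It was highest in PF, 3.09 times the COR level, while the other 3 libraries lay close together. In a bulk library, fewer cells that express a gene and less of its RNA per cell cannot be told apart, and this holds for every level given here.

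Within a library the ratio of *Twist1* to *Twist2* does not depend on how the libraries were scaled against each other. The ratio was 1.55 (PF), 7.45 (SAG), 14.2 (COR) and 8.33 (GP). *Twist1* was the more abundant of the pair in every library, by the least in PF and by the most in COR. The summed level of both genes was 69.2 FPKM in PF and 45.9 in SAG, with 133 in COR and 73.4 in GP.

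*Hand2*, a factor of the branchial arches, heart and limb bud, was listed at 0 in PF, SAG and COR and at 0.106 FPKM in GP. The GP value amounts to about 8 fragments, and no ratio was formed for *Hand2*. It did not pass the filter of 1 FPKM in any library.

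The E proteins differed in how much they varied. *Tcf3*, which encodes E12 and E47, was listed at 71.1 FPKM (PF), 49.98 (SAG), 56.2 (COR) and 44.8 (GP). The 4 libraries lay within 1.59-fold of each other, the narrowest range of the 8 members. *Tcf4*, which encodes E2-2, was listed at 9.14 FPKM in PF and 55.4 in SAG, with 29.7 in COR and 27.2 in GP. PF was the lowest library and SAG the highest, at 6.06 times the PF level, with COR and GP close together between them. *Tcf12*, the third E protein gene and a gene of coronal synostosis, was not among the 9 and was listed at 11.5, 30.7, 26.4 and 16.4 FPKM in the same order of libraries. It was lowest in PF and highest in SAG, as *Tcf4* was.

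The pair of E proteins had a different make-up in PF. The ratio of *Tcf3* to *Tcf4* was 7.77 (PF), 0.902 (SAG), 1.89 (COR) and 1.64 (GP). Base composition moved with this result. The longest coding transcript of *Tcf3* is 61.0% GC and that of *Tcf4* 41.1%, against a median of 50.7% over genes with a mean of 5 FPKM or more. That of *Tcf12*, at 45.1%, is also below this median. Across 7719 genes the median log2 ratio of PF to SAG ran from -0.44 in the fifth of genes with the least GC to 0.57 in the fifth with the most. After a loess correction for GC content, an alternative chosen for this ratio after seeing the data, *Tcf3* to *Tcf4* was 4.60 (PF), 1.23 (SAG), 1.95 (COR) and 1.99 (GP), so PF was still the highest, and in SAG *Tcf3* and not *Tcf4* was then the more abundant. How much of the remainder goes with GC was not tested.

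**Figure D2:**
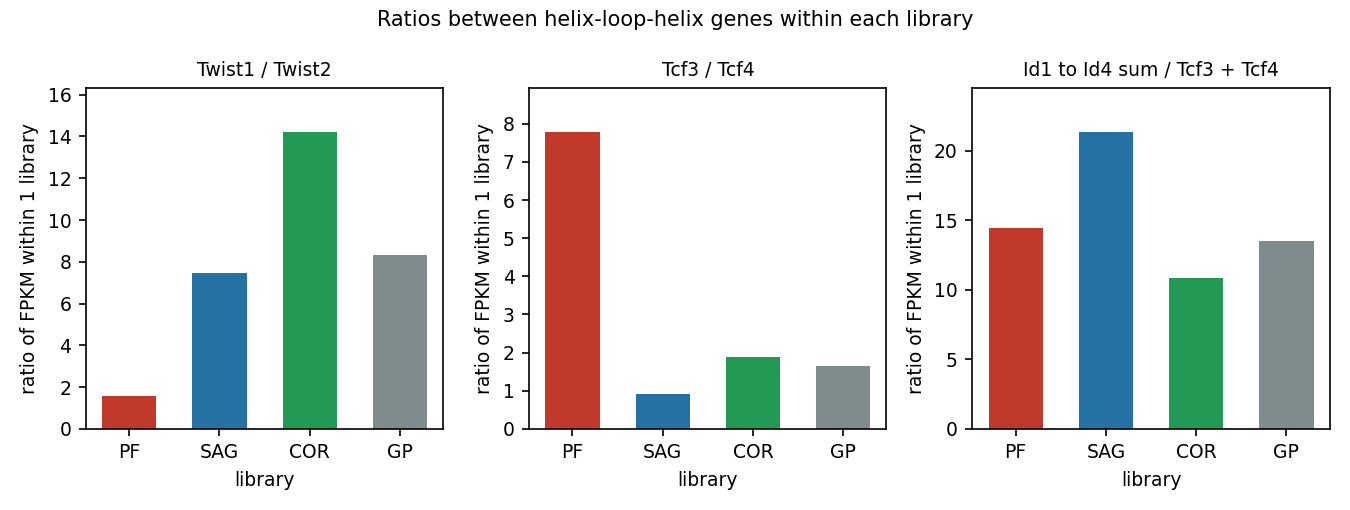
Ratios of FPKM within each library, drawn as bars from 0, for *Twist1* to *Twist2*, *Tcf3* to *Tcf4*, and the sum of *Id1* to *Id4* over the sum of *Tcf3* and *Tcf4*. PF has the lowest *Twist1* to *Twist2* ratio (1.55) and the highest *Tcf3* to *Tcf4* ratio (7.77), and SAG has the highest Id to E protein ratio (21.3).

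All 4 Id genes were highest in SAG. *Id3*, the most abundant member, was listed at 865 FPKM in PF and 1373 in SAG, with 606 in COR and 688 in GP, above at least 99.6% of the symbols in each library. Its highest level was 2.27 times its lowest. *Id2*, which shares the role of E protein inhibitor, was listed at 188, 299, 198 and 174 FPKM in the same order, a range of 1.72-fold. *Id1*, the classical BMP target among them, was listed at 94.5 FPKM (PF), 320.03 (SAG), 115 (COR) and 99.1 (GP). SAG stood apart for *Id1* by 2.79 times the next library, and the other 3 lay close together.

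*Id4*, which is known from neural progenitors and from osteoblast differentiation, had the widest range of the 8 members above 5 FPKM. It was listed at 9.92 FPKM in PF and 257 in SAG, with 12.7 in COR and 10.8 in GP. The SAG level was 25.9 times that of PF and 20.2 times that of COR, the next library. *Id4* was above 98.8% of the symbols in SAG and above 74.9% to 77.7% of them in the other libraries. It was the only member at least 3-fold higher in SAG than in each of the other libraries, a pattern shown by 2.85% of 13998 genes.

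Summed, the Id genes were at 1157 FPKM (PF), 2248 (SAG), 931 (COR) and 972 (GP). *Id3* made up 74.8% of the sum in PF and 61.1% in SAG, with 65.1% in COR and 70.8% in GP, and the share of *Id4* was 0.857%, 11.4%, 1.36% and 1.11% in the same order. Against the sum of *Tcf3* and *Tcf4*, the Id sum was 14.4 times as high (PF), 21.3 (SAG), 10.8 (COR) and 13.5 (GP). On the FPKM scale, Id RNA thus exceeded E protein RNA in all 4 libraries, with the highest ratio in SAG and the lowest in COR. Without *Id3* the ratio was 3.64 in PF and 8.30 in SAG, with 3.78 in COR and 3.94 in GP, and with *Id3* left out PF was the lowest instead of COR. The sum of *Twist1* and *Twist2* over that of *Tcf3* and *Tcf4* was 0.863 (PF), 0.435 (SAG), 1.55 (COR) and 1.02 (GP), the reverse of the library order of the Id to E protein ratio, which has the same denominator.

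Ratios between libraries are differences of log2(FPKM + 1), so changes of low genes come out too small, and a gene was counted at 3-fold or more (1.58 on the log2 scale). Genes needed 1 FPKM in at least 1 library compared, which 8 of the 9 members passed. Between PF-CD51+;CD200+ and SAG-CD51+;CD200+ cells, 4 of these 8 passed 3-fold, against 15.7% of all genes compared. *Twist2* was higher in PF by a log2 ratio of 2.13. Lower in PF were *Id4* at -4.56, *Tcf4* at -2.48 and *Id1* at -1.75. The other 4 were *Twist1* at 0.06, *Tcf3* at 0.50, *Id2* at -0.67 and *Id3* at -0.67. The median log2 ratio was -0.67 over the 8 and 0.03 over all 13490 genes compared. With values taken relative to *Gapdh*, which put the median of all genes at 0.51 instead of 0.03, the log2 ratio of *Id1* was -1.22. Then 3 members passed, against 18.6% of all genes compared. Between PF and SAG, *Twist1* and *Tcf3* took the opposite sign under the GC correction, at -0.50 and -0.10, and *Twist1* also under quantile normalization.

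Between PF and COR, 1 member passed 3-fold, against 11.7% of all genes compared. It was *Tcf4*, lower in PF at -1.60 on the log2 scale. *Twist1*, lower in PF at -1.54, and *Twist2*, higher in PF at 1.53, lay just under the threshold. The remaining 5 lay between -0.33 (*Id4*) and 0.51 (*Id3*). Which of the 3 passed changed with the scaling. *Twist1* alone passed after quantile normalization (-1.60) and after the GC correction (-1.91, with *Tcf4* at -1.24), and *Twist2* alone passed relative to *Gapdh* (1.77). The direction of all 3 was the same under the 7 alternatives tried. The median log2 ratio was -0.18 over the 8 and 0.05 over 12853 genes.

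Between COR and SAG, the sutures that stay patent, 2 members passed 3-fold, against 9.25% of all genes compared. *Twist1* was higher in COR at 1.60 on the log2 scale, and *Id4* was lower at -4.23. *Id1* was at -1.47, *Id3* at -1.18, *Tcf4* at -0.88, *Id2* at -0.59, *Twist2* at 0.60 and *Tcf3* at 0.17. *Twist1* was under the threshold after quantile normalization (1.53), the GC correction (1.42) and scaling to a common median ratio (1.54). *Id1* passed after quantile normalization, at -1.73. The median log2 ratio was -0.73 over the 8 and -0.02 over 12720 genes.

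**Figure D3:**
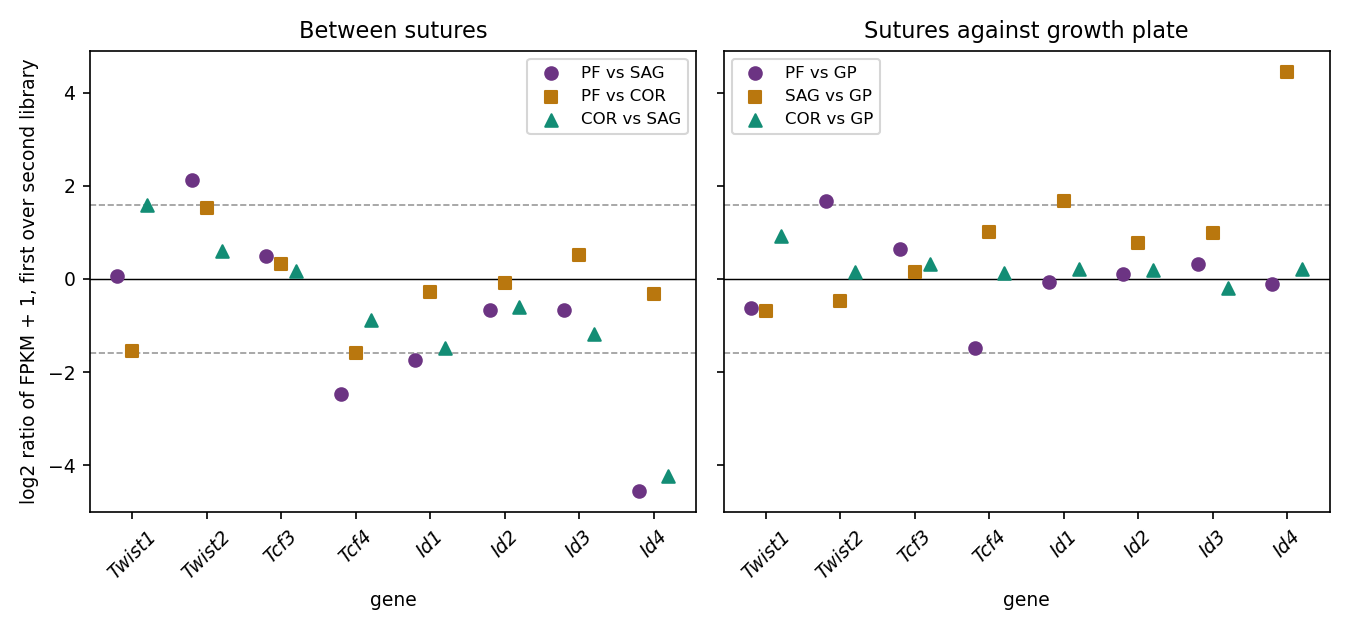
Log2 ratio of FPKM + 1 for the 8 members that passed the filter, between sutures (left) and for each suture against GP (right), with 1 point per comparison and dashed lines at 3-fold. *Id4* reaches -4.56 and -4.23 for PF and COR against SAG and 4.45 for SAG against GP, and the COR against GP points stay within 0.91 of 0.

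Each suture was also set against GP, and these comparisons share the GP library. For PF it was 1 member, *Twist2* at 1.67, against 12.0% of all genes compared, with *Tcf4* at -1.48 just under the threshold. *Twist2* was at 1.29 there after the GC correction, and then no member passed, against 10.9% of all genes compared. For SAG it was 2 members, *Id4* at 4.45 and *Id1* at 1.68, against 8.66% of genes. *Id3* was at 0.996 in SAG against GP, *Tcf4* at 0.999, *Id2* at 0.78, and *Twist1* at -0.68. For COR it was 0 members, against 4.4% of genes, and the value farthest from 0 was *Twist1* at 0.91. The median log2 ratio over the 8 was 0.02 for PF, 0.89 for SAG and 0.20 for COR, beside 0.03, 0.03 and 0.02 over all genes compared.

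**Figure D4:**
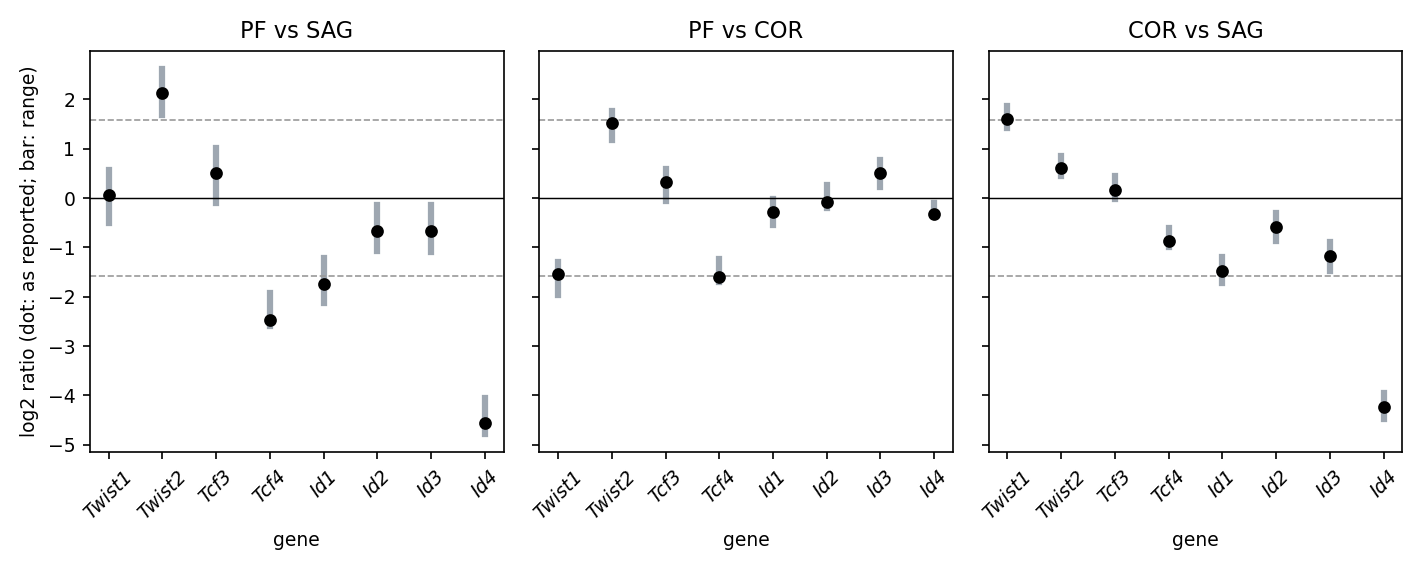
Log2 ratio of the 8 members between the 3 pairs of sutures as reported (dot) and its range over that value and 7 alternative settings (bar), with dashed lines at 3-fold. The bars of *Twist2*, *Tcf4* and *Id4* for PF against SAG stay past 3-fold, while those of *Twist1*, *Twist2* and *Tcf4* for PF against COR straddle a dashed line.

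Markers of other cell types also differed between the libraries. The 9 choroid plexus markers summed to 5418 FPKM in SAG against 94.3 to 491 in the others, with 7 of 9 at 1 FPKM or more in SAG, 6 in PF, 3 in COR and 2 in GP, and none at 0. *Ttr*, which encodes transthyretin, gave 5103 of the SAG sum, and without it the other 8 summed to 315 FPKM in SAG, 84.5 in GP, 27.9 in COR and 25.7 in PF. Of these sums *Enpp2* alone gave 83.0 FPKM in GP and 22.2 in COR, against 55.8 in SAG and 7.62 in PF. The 12 chondrocyte markers were all at 1 FPKM or more in every library and summed to 7075 FPKM in SAG and 3954 in GP, against 236 in PF and 216 in COR. SAG, the library with the highest *Id4* and *Id1*, was thus the highest for both sums. Gene by gene, *Comp* was higher in GP than in SAG, at 587 against 299.9 FPKM. *Acan*, *Matn3* and *Hapln1* were also higher in GP, as was *Enpp2* of the choroid plexus list. The part of choroid plexus or chondrocyte RNA in the Id levels of SAG was not tested. The 8 osteoblast markers, all at 1 FPKM or more everywhere, summed to 12062 FPKM in COR, 8235 in GP, 2846 in PF and 901 in SAG, the same order of libraries as *Twist1*. *Spp1* alone gave 8324 of the COR sum and 6882 of the GP sum. Of the 8, only *Sp7*, *Ibsp* and *Spp1* had this order on their own, while *Runx2*, *Alpl*, *Bglap* and *Bglap2* were higher in PF than in GP, and *Dmp1* was higher in SAG than in PF. The relation of osteoblast RNA to the *Twist1* level was not tested.

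The remaining marker lists were low. The 11 neuron markers summed to 82.8 FPKM in PF, of which *Gap43* gave 78.8, and to 18.5 to 22.3 in the others. At 1 FPKM or more were 6 of these markers in SAG, 3 in PF, 3 in GP and 2 in COR. Of the 6, *Snap25* (2.21 FPKM), *Syt1* (1.80), *Map2* (4.43) and *Rbfox3* (1.01) were highest in SAG. *Gap43* and *Tubb3* were lowest there. *Snap25* was listed at 0 in PF, COR and GP and *Elavl3* in SAG, COR and GP. The 10 endothelial markers summed to 12.2 to 50.2 FPKM, the 9 leukocyte markers to 5.44 to 34.6 and the 9 skeletal muscle markers to 3.52 to 14.0, each highest in PF. In PF most of these sums came from few genes, *Esam* at 29.5 FPKM and *Egfl7* at 16.1 for endothelium, *Lyz2* at 30.2 for leukocytes and *Des* at 9.81 for muscle. Other genes of these lists were highest in SAG, *Kdr* at 14.9 FPKM against 2.12 in PF, and *Tnnt3* at 6.02 against 2.81. *Lyz2* was at 4.15 to 7.53 FPKM in the other libraries, and *Cd68* was at 3.63 FPKM in PF and 3.01 in SAG, with 0.484 in COR and 0.711 in GP. *Cd3e*, *C1qa* and *C1qb* were at 0 in PF, and *Myod1* was at 0 in all 4 libraries.

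**Figure D5:**
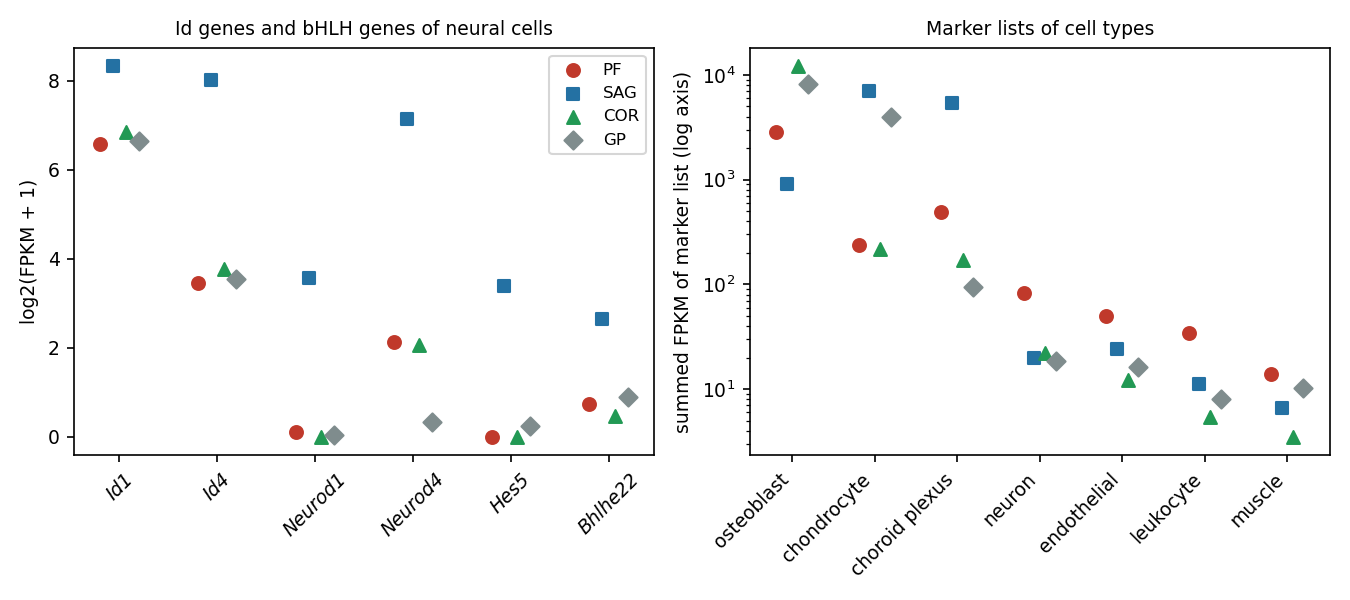
Left, *Id1*, *Id4* and 4 helix-loop-helix genes of neural cells as log2(FPKM + 1) in the 4 libraries. Right, the summed FPKM of 7 cell type marker lists on a log axis, where SAG is highest for chondrocyte (7075) and choroid plexus (5418) markers and COR for osteoblast markers (12062).

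Other tissue-restricted helix-loop-helix genes, the possible partners of the E proteins, were few. Of 40 such genes, 7 were at 1 FPKM or more in PF and 9 in SAG, with 4 in COR and 5 in GP. Between PF and SAG, 11 passed the filter, of which 2 were at least 3-fold higher and 5 at least 3-fold lower in PF. Past 3-fold in either direction were 15.7% of all genes compared. *Scx*, the tendon and ligament factor, was listed at 60.2 FPKM (PF), 11.3 (SAG), 107 (COR) and 168 (GP). It was the most abundant of the 40 in PF, COR and GP. In SAG that place was taken by *Neurod4*, a proneural factor, at 3.35 FPKM in PF and 140.2 in SAG, with 3.16 in COR and 0.26 in GP. *Neurod1*, also proneural, was listed at 0.07, 10.9, 0 and 0.026 FPKM in the same order.

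These proneural genes thus shared with *Id4* a high level in SAG and a low one elsewhere, and *Bhlhe22* was also highest in SAG at 5.25 FPKM, against 0.392 to 0.853. *Atoh1* was at 5.78 FPKM in PF and at most 0.045 in the others. *Tcf15*, a paralog of *Scx*, was at 5.31 FPKM (PF), 1.38 (SAG), 0.499 (COR) and 7.51 (GP), and *Msc* was listed at 0 in PF and at 2.24, 0.898 and 3.71 FPKM in SAG, COR and GP. Between COR and SAG, 1 of 9 passing genes was higher in COR (*Scx*) and 4 were lower, among them *Neurod4* and *Bhlhe22*. Between PF and COR, 2 of 7 were higher in PF (*Tcf15* and *Atoh1*) and 0 lower. Of all genes compared, 9.25% passed 3-fold between COR and SAG and 11.7% between PF and COR.

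*Id1* was set beside other genes known to respond to BMP through SMAD proteins. Of 10 such genes, 9 passed the filter between PF and SAG, 0 of them past 3-fold, with a median log2 ratio of 0.04. Between COR and SAG, 1 of 9 passed, *Dlx5*, at 102 FPKM in COR and 20.9 in SAG, and the median was -0.0008. Between PF and COR the same gene was the 1 of 9 past 3-fold, at 22.6 FPKM in PF. Over all genes compared, 15.7% passed 3-fold between PF and SAG, 9.25% between COR and SAG and 11.7% between PF and COR. *Smad6*, the inhibitory SMAD, was at 32.5 FPKM in PF and 31.7 in SAG, with 54.0 in COR and 24.2 in GP. *Msx1* was at 258, 175, 94.4 and 15.9 FPKM and *Msx2* at 43.2, 54.4, 22.1 and 2.13 FPKM in the same order. All 3 sutures were past 3-fold above GP for both. *Dlx5* went the other way for PF and SAG, which were past 3-fold below GP, at 82.3 FPKM. Against GP, 12.0% of all genes compared passed 3-fold for PF, 8.66% for SAG and 4.4% for COR.

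Of 16 genes linked to *Twist1* in suture biology or mesenchymal state, 15 passed the filter. Between COR and SAG, where *Twist1* differed by 1.60 on the log2 scale, 2 of the 15 were past 3-fold higher in COR and 0 lower, with a median of 0.48. The pair was *Runx2*, the master factor of osteoblasts, at 30.4 FPKM in COR and 9.41 in SAG, and *Postn*, at 2358 and 191. Between PF and SAG, 0 were higher and 3 lower in PF, with a median of 0.36. These were *Fgfr3* at 13.5 FPKM in PF and 48.6 in SAG, *Zeb1* at 2.41 and 10.3, and *Cdh2*, N-cadherin, at 3.56 and 13.5. Between PF and COR, *Efna4*, an ephrin gene of coronal synostosis, was higher in PF at 24.2 FPKM against 7.23, and *Postn* and *Cdh2* were lower at 166 against 2358 and 3.56 against 18.4, with a median of -0.36 over the 15. Beside these counts, 9.25% of all genes compared passed 3-fold between COR and SAG, 15.7% between PF and SAG and 11.7% between PF and COR.

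The genes most like *Twist1* across the 4 libraries were found by the Euclidean distance of centred log2(FPKM + 1), among 8330 genes with a mean of 5 FPKM or more. The nearest were *Slc41a2* at a distance of 0.09, *Me2* at 0.11 and *Myadm* at 0.14, and 65 genes lay within 0.5. For *Id1* they were *Slc40a1*, the iron exporter ferroportin, at 0.13, *Sox5*, a chondrogenic SOX factor, at 0.19 and *Elovl4* at 0.21, and 28 genes lay within 0.5. With only 4 points per gene many genes can look alike, and this is a description. *Id3* and *Id2* ranked 186 and 218 in likeness to *Id1*, and *Id4* ranked 7378. *Twist2* ranked 7498 in likeness to *Twist1*.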

How the data were processed

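RNA of sorted CD51+;CD200+ cells was measured by paired-end RNA-seq in 4 libraries, 1 per tissue, grouped by their labels. The authors made amplified cDNA, mapped reads with STAR 2.5.1b to mm9, and deposited FPKM per gene symbol from Cuffdiff of Cufflinks 2.2.1, as the submitters' processing notes and the study's methods give. How Cuffdiff scaled the libraries is not given in the sources used here. The values were used as deposited. Ratios were taken on log2(FPKM + 1), a pseudocount of 1, for genes at 1 FPKM or more in at least 1 library compared, and counted at 3-fold. Without counts or replicates no test was made, and no counting interval is given. The members and lists were chosen with earlier results of these data known. Genes named were the 9 members, *Tcf12*, *Gapdh*, sort and cell type markers, the 3 genes nearest to *Twist1* and to *Id1*, and in each pathway list those past 3-fold between sutures or the 4 highest. Of these, 1 listed gene is not reported here. Positions, GC content and length came from GENCODE on mm9, where 80.8% of symbols and all 9 members had a coding transcript. Upstream sequences came from RefSeq on GRCm38.p6, with 7 members used. Alternatives were a pseudocount of 0.1, 3 other scalings, 3 other filters, 2-fold, other gene sums and a loess correction for GC content (span 0.3). Added after seeing the data were a GC and length correction, no pseudocount, and the GC correction of the *Tcf3* to *Tcf4* ratio. The tools were pandas 2.3.3, numpy 2.4.6, statsmodels 0.14.6, scipy 1.17.1 and matplotlib 3.10.9 under Python 3.11.15, and the steps were tested on simulated data.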

Additional observations from a re-analysis of the deposited data

How the results depend on the processing

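No paired analysis was possible because 1 library stands for each tissue, and leaving out a replicate would leave no value. Of 336 member ratios recomputed under 7 settings, 335 moved by less than 1.5-fold, 0 called ratios changed sign, and 1 moved further, *Tcf3* between PF and SAG, from 0.50 to -0.10 on the log2 scale under the GC correction. Over the 48 ratios, 40 kept their sign under every setting, and the 8 that did not were at most 0.50 in size as reported. The number of members past 3-fold was the less stable value. Between PF and COR it was 1 as reported, 2 with a pseudocount of 0.1 (*Twist2* and *Tcf4*) and 3 at 2-fold. The share of all genes compared was 11.7%, 22.8% and 29.4% under these settings in turn. Between COR and SAG it was 2 as reported, 1 after scaling to a common median ratio, after the GC correction and after the GC and length correction, and 4 at 2-fold. The share of all genes compared was 9.25%, 9.22%, 9.01%, 9.06% and 20.1% in that order. Between PF and GP it was 1 as reported, 0 after the GC correction and after the GC and length correction, and 2 at 2-fold. Here the share of all genes compared was 12.0%, 10.9%, 10.9% and 29.1% in that order. The *Tcf3* to *Tcf4* ratio of PF was 4.60 under the GC correction. The Id to E protein ratio without *Id3* was 3.64 (PF), 8.30 (SAG), 3.78 (COR) and 3.94 (GP), which follows from leaving out the most abundant term. For the counts the cause was not tested, beyond that several members lay close to 3-fold. Under scaling to *Gapdh* the median log2 ratio of all genes was 0.51 between PF and SAG, 0.46 between PF and GP, 0.29 between PF and COR, 0.23 between COR and SAG and 0.21 between COR and GP, against -0.02 to 0.05 as reported. The GC and length correction, the ratios without a pseudocount and the GC correction of the *Tcf3* to *Tcf4* ratio were chosen after seeing the data. The PF library was the shallowest by the step estimate, and *Id4* in PF (about 282 fragments) and *Twist2* in SAG (about 287) rest on the fewest among the 8 members above 5 FPKM.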

Other observations

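Hes and Hey genes, a family of helix-loop-helix genes of which some act downstream of Notch, and the related *Bhlhe40* were also listed in these cells. Of 11 such genes, 7 were at 1 FPKM or more in PF and GP and 6 in SAG and COR. *Hes1*, the most abundant in PF and COR, was at 80.3 FPKM in PF and 96.9 in SAG, with 53.7 in COR and 44.6 in GP. *Hes6* followed at 57.1, 70.7, 36.9 and 36.5 FPKM in that order. Both were highest in SAG, with PF next. *Heyl* was the 1 gene of the list at least 3-fold higher in PF than in SAG and in COR, at 21.5 FPKM (PF), 1.92 (SAG), 2.02 (COR) and 7.54 (GP), and *Hey1* was also highest in PF, at 23.3 FPKM against 7.49 to 11.2. *Bhlhe40*, a repressor that responds to hypoxia and the circadian clock, was at 16.4 FPKM in PF and 104 in SAG, with 30.5 in COR and 50.1 in GP, and *Hes5* was at 9.42 FPKM in SAG, 0.187 in GP and listed at 0 in PF and COR. Both were at least 3-fold lower in PF and in COR than in SAG. Of the 8 that passed the filter between PF and SAG, 1 was higher and 2 lower past 3-fold, with a median log2 ratio of 0.06. Of all genes compared in that pair, 15.7% passed 3-fold.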
